A study of Homo sapiens with 12 samples.

Results

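The genes described here, the members, are 55 genes of the G2/M transition and of mitosis, listed by their known roles. They cover mitotic cyclins and kinases, the spindle checkpoint, kinetochore and spindle proteins, kinesins, condensin and cytokinesis proteins. This list and all others below were chosen with earlier results of these data known, so counts over them are descriptions and not independent support. All 55 were among the 15692 genes with enough reads to be tested, out of 60617 gene identifiers quantified. RNA-seq was performed on 12 libraries of human HCT 116p53-/- cells, a colorectal cancer line labelled as lacking p53, and of a line derived from it that is labelled RPL3 KO and described by the study as stably silenced for uL3, the ribosomal protein encoded by RPL3 (uL3ΔHCT 116p53-/-). Each line was given vehicle or actinomycin D (Act D), a DNA intercalator that at low dose blocks RNA polymerase I, at 5 nM for 24 h, with 3 libraries in each of the 4 groups. The label p53-/- is shared by all groups, and each line is a single line, so that whatever else separates the lines cannot be told apart from uL3. The labels call the 3 libraries of a group biological replicates, and p-values measure the spread between them.

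The targeted gene did not follow its label. RPL3 was at 1120 to 1150 CPM (counts scaled to a common library size after TMM normalization) in vehicle-treated HCT 116p53-/- libraries and at 1190 to 1340 CPM in the vehicle-treated libraries labelled uL3Δ. The groups are therefore called by their labels, and every direction between the lines is one between libraries so labelled. Of 8 tested colon epithelial markers, 7 were lower and 1 was higher in the uL3Δ-labelled line with vehicle. Over all genes tested, 36.2% were called lower and 35.1% higher in that comparison. The summed level of the epithelial markers was 2538 to 2863 CPM in HCT 116p53-/- against 1599 to 1994 CPM. In the uL3Δ-labelled line with vehicle, KRT8 and KRT18 held most of it, with means of 777 and 840 CPM. CDH1 was at 64.3 to 76.6 CPM in HCT 116p53-/- and at 0 to 0.701 CPM in uL3Δ-labelled libraries, while CDX1 and VIL1 were at or near 0 in all 12. Of 8 tested mesenchymal markers, 6 were higher and 1 was lower, and their summed level was 57.09 to 102.4 CPM against 2588 to 2929 CPM. VIM held most of the latter, with a mean of 2240 CPM in the uL3Δ-labelled line with vehicle, and FN1 followed at 249 CPM. CDH2, PDGFRB and COL1A1 were at 0.648, 1.72 and 4.14 CPM in that group. The blood cell markers PTPRC, CD3E and HBB were at or near 0 throughout, and CD68, the single one tested, was higher in the uL3Δ-labelled line. Library totals ran from 10087880 to 21138861 counts, and mitochondrial transcripts took 7.98% to 9.51% of the counts in HCT 116p53-/- with vehicle and 10.5% to 12.1% with Act D, against 4.57% to 6.28% and 7.10% to 9.83% in the uL3Δ-labelled line.

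Entry into mitosis is driven by CDK1 bound to cyclin B, which WEE1 holds inactive and CDC25 phosphatases release. Most of these genes are transcribed in a wave that peaks in G2 and M phase. The wave is repressed by the DREAM complex through CHR elements in the promoters, and driven by B-MYB (MYBL2) and FOXM1, with the CCAAT-binding factor NF-Y at nearby sites. CDKN1A (p21), an inhibitor of cyclin-dependent kinases, favours the assembly of DREAM and so lowers the wave. In a bulk sample, a smaller share of cells in G2 or M phase and less RNA per cell cannot be told apart.

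Promoters were read first, because the members are known as a group with common promoter elements. RefSeq promoter windows (GRCh38.p14, 250 bases before to 50 bases after each start) were matched by symbol for 47 of the 55 members. The windows of TPX2, FOXM1, BUB3, WEE1, AURKA, BIRC5, UBE2C and TTK were not analysed here. The CHR-type hexamers TTTGAA or TTCGAA were searched on both strands, as was the NF-Y-type box CCAAT, and matches may overlap. A hexamer was found for 35 of 47 members (74.5%), against 15.6% of the 11319 tested genes with a window and 16.4% of all 35116 windows. CCAAT was found for 37 members (78.7%) against 43.0% of tested genes and 34.6% of all windows. Both were found for 28 members (59.6%) against 6.63% of tested genes. The median hexamer lay 29 bases before the start, and the median CCAAT match 86.5 bases before it. A match describes the letters and is neither a bound site nor a cause.

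**Figure D1:**
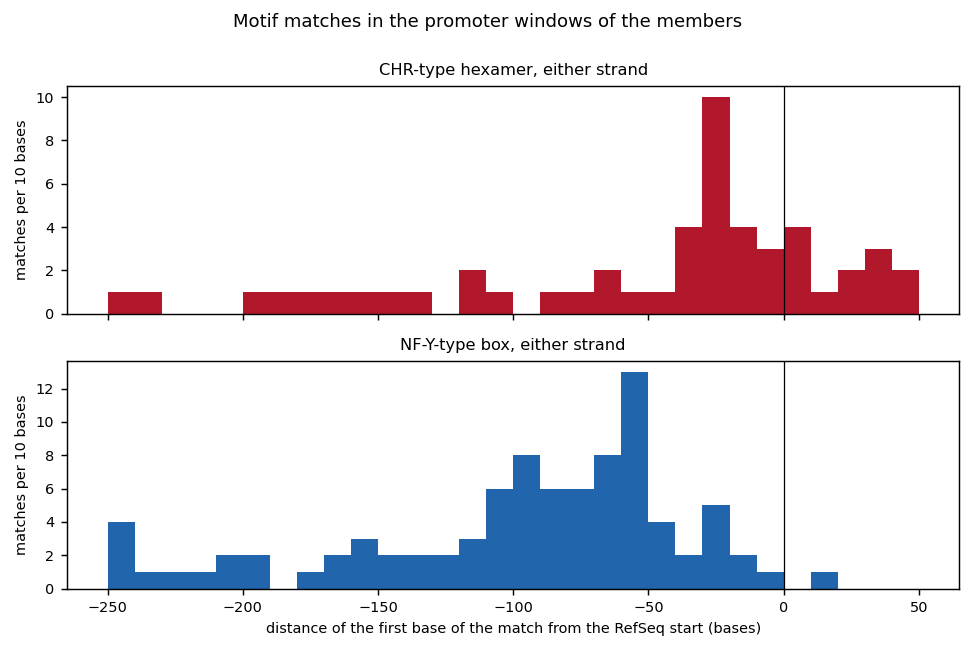
Matches to the CHR-type hexamer (upper panel) and to the NF-Y-type box (lower panel) in the promoter windows of 47 members, as matches in each 10 bases (y axis) by distance of the first matched base from the RefSeq start (x axis, bases). The 51 hexamer matches are densest just before the start and the 88 NF-Y-type matches lie further out, with medians of -29 and -86.5 bases.

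The stretches shown are those of members on which the results turn and whose 150 bases before the start hold no annotated exon base. KIF20A and KIF20B were called in opposite directions with Act D in both lines. MKI67 had the lowest log2 difference between the lines and CDC25A one of the 3 highest with vehicle, and TOP2A and CDC20 stand for the members higher and lower in the uL3Δ-labelled line. Of HMMR, the single member whose Act D response differed between the lines, 30 bases are shown. Sequences are from RefSeq, 5′ to 3′ on the gene's strand, and capitals mark the hexamers and the CCAAT boxes (ATTGG where a box is on the other strand).
KIF20A, chr5:138178962-138179111, plus strand: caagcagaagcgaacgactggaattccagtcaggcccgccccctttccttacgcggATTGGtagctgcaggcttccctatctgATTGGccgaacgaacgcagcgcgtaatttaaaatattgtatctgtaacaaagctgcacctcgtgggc
KIF20B, chr10:89701440-89701589, plus strand: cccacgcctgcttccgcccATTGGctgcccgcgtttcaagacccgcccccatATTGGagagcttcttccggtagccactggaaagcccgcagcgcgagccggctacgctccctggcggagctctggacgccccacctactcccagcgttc
MKI67, chr10:128126424-128126573, minus strand: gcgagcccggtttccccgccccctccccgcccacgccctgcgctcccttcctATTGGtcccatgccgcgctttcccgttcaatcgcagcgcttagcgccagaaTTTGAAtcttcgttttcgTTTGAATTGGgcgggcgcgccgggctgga
CDC25A, chr3:48188418-48188567, minus strand: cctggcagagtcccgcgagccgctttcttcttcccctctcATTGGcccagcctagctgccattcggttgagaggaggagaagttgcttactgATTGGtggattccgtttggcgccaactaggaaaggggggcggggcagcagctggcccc
TOP2A, chr17:40417897-40418046, minus strand: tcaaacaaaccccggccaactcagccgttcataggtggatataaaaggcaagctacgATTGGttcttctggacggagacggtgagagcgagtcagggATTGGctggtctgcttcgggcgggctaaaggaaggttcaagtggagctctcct
CDC20, chr1:43358831-43358980, plus strand: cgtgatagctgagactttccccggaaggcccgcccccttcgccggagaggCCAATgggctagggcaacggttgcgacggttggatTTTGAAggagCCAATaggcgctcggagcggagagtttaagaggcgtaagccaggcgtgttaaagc
HMMR, chr5:163460595-163460624, plus strand: gtggggagaTTTGAATTTGAAaccggtagg
Each of the 6 longer stretches held 2 CCAAT boxes, and in MKI67 a box overlaps a hexamer. The 30 bases of HMMR were cut around its hexamers. Its CCAAT matches, which begin at -177, -144, -95, -69 and -66, lie outside them. MKI67 and HMMR each carried 2 hexamers, CDC20 carried 1, and the stretches of KIF20A, KIF20B, CDC25A and TOP2A carried 0. Of these 4, KIF20B and TOP2A hold hexamers elsewhere in their windows and count among the 35: KIF20B has hexamers that begin 24 and 30 bases after the start, and TOP2A has hexamers that begin at -194 and -151, the latter running into the stretch shown. The whole KIF20A stretch lies within the GENCODE span of its gene, and all 30 bases of HMMR lie in an exon of a transcript that GENCODE starts further upstream.

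The members together were at 6161 to 6784 CPM in all 12 libraries. Their summed level was 6161 to 6459 CPM in HCT 116p53-/- with vehicle and 6453 to 6631 CPM with Act D, and 6424 to 6553 CPM and 6465 to 6784 CPM in the uL3Δ-labelled line. After this TMM scaling the ranges overlap for each pair of groups but one, HCT 116p53-/- with vehicle and the uL3Δ-labelled line with Act D. As a plain share of all counts the lines did not overlap and the order turned: the members took 0.673% to 0.740% and 0.679% to 0.693% of the counts in HCT 116p53-/- with vehicle and with Act D, against 0.606% to 0.633% and 0.555% to 0.617% in the uL3Δ-labelled line. The median member was at 26.8 and 26.3 TPM in HCT 116p53-/- and at 17.6 and 16.1 TPM in the uL3Δ-labelled line. No test was made of these sums. As TPM, the RSEM level corrected for transcript length, UBE2C, the ubiquitin-conjugating enzyme of the anaphase-promoting complex (APC/C), was highest in HCT 116p53-/- with vehicle at 149 ± 21.5 TPM (SD, n = 3). BUB3, a checkpoint protein, followed at 138 ± 14.6 TPM, cyclin B1 (CCNB1) at 123 ± 17.8 TPM and the APC/C activator CDC20 at 111 ± 7.29 TPM. These neighbours do not differ beyond their spread. The lowest were the kinetochore motor CENPE at 5.61 ± 0.570 TPM and the phosphatase CDC25C at 3.10 ± 0.387 TPM. In the uL3Δ-labelled line with vehicle the order began with securin (PTTG1) at 157 ± 24.3 TPM, followed by UBE2C at 90.9 ± 10.8 TPM, CDK1 at 90.7 ± 4.44 TPM and TPX2, the activator of Aurora A, at 88.9 ± 15.1 TPM. On hg38, CDK1 lies at chr10:60778331-60794852 on the plus strand, CCNB1 at chr5:69167135-69178245 on the plus strand and MKI67 at chr10:128096659-128126423 on the minus strand.

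In HCT 116p53-/- cells, 24 h of Act D left nearly all of the members within a narrow band. Of the 55, 10 passed the test (18.2%), close to the background of 18.7% over all genes tested. Of these, 5 were higher with Act D (background 7.59%) and 5 were lower (background 11.1%). No member moved by more than 0.5 on the log2 scale, which 21.7% of all tested genes did in either direction, and the 95% intervals of all 55 lay between -0.68 and 0.64. The median log2 fold change of the members was 0.03, beside 0.02 over all genes. The median size without sign was 0.128 against 0.231, with median standard errors of 0.0936 and 0.144.

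The member most raised was NEK2, a centrosomal kinase that splits the centrosomes at mitotic entry. It was at 34.7, 35.1 and 29.4 CPM with vehicle and at 45.8, 43.8 and 43.4 CPM with Act D, so the groups did not overlap (log2 fold change 0.42 ± 0.09 (SE), adjusted p = 0.00345). KIF20A, a kinesin of the central spindle, rose from 83.7, 72.1 and 70.8 CPM to 103, 101 and 95.7 CPM (0.41 ± 0.09, adjusted p = 0.00543). MKI67, which encodes the Ki-67 protein that coats mitotic chromosomes and marks cycling cells, rose from 499, 535 and 557 CPM to 673, 665 and 719 CPM (0.37 ± 0.11, adjusted p = 0.0294). The spindle protein CKAP2 (0.36) and PTTG1 (0.26) were the other members called higher.

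HMMR, a spindle assembly protein that also binds hyaluronan, fell most. It was at 54.4, 46.8 and 47.0 CPM with vehicle and at 38.0, 36.0 and 35.1 CPM with Act D (-0.44 ± 0.11, adjusted p = 0.0112). The kinesin KIF20B fell from 72.7, 67.8 and 60.5 CPM to 50.4, 47.9 and 55.9 CPM (-0.38 ± 0.10, adjusted p = 0.0109). BUB1B, which encodes the checkpoint protein BUBR1, fell from 127, 117 and 105 CPM to 93.2, 86.7 and 94.7 CPM (-0.35 ± 0.10, adjusted p = 0.0199). KIF18A, a kinesin that dampens chromosome oscillation (-0.34), and the condensin subunit NCAPH (-0.22) were also lower. In each of these 5 the treated libraries lay below all vehicle libraries.

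CDK1, CCNB1 and PLK1, at the core of mitotic entry, did not pass the test. CDK1 was at 159, 130 and 131 CPM with vehicle and 150, 150 and 148 CPM with Act D (0.09, 95% interval -0.14 to 0.32, adjusted p = 0.607). CCNB1 was at 267, 232 and 245 CPM and 277, 266 and 282 CPM (0.15, -0.02 to 0.31, adjusted p = 0.225). PLK1, the Polo kinase that activates CDC25C, was at 102, 108 and 99.6 CPM and 121, 119 and 110 CPM (0.18, -0.01 to 0.37, adjusted p = 0.193).
The same held for the Aurora A kinase gene AURKA (0.10, -0.10 to 0.31, adjusted p = 0.499), topoisomerase II alpha TOP2A (0.05, -0.13 to 0.23, adjusted p = 0.730), FOXM1 (0.10, -0.11 to 0.32, adjusted p = 0.533) and MYBL2 (-0.13, -0.34 to 0.08, adjusted p = 0.423). All these intervals leave out a change of 0.5 on the log2 scale in either direction. Over all 55 members, 24 had groups that did not overlap (43.6%), beside 38.2% of all genes tested.

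These calls were small and many depended on how the libraries were scaled or which were used. Scaling by library size alone gave 1 higher and 7 lower members and upper-quartile scaling gave 7 and 3, and without vehicle library 1 there were 4 higher and 0 lower. NEK2 was the single member called under all 23 alternatives tried. Another 5 transcripts were picked for means of at least 100 CPM in both uL3Δ-labelled groups and at most 0.5 CPM in vehicle-treated HCT 116p53-/-. That choice itself holds their share low in the vehicle libraries, at medians of 0.206% to 0.240% of the uL3Δ-labelled level. It cannot serve as a reference for the Act D libraries of HCT 116p53-/-, where the medians were 0.574% to 0.869%. Subtracting such a share gave 6 higher and 5 lower members, and even the highest share seen, 1.03%, would move no member by more than 0.036 on the log2 scale.

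**Figure D2:**
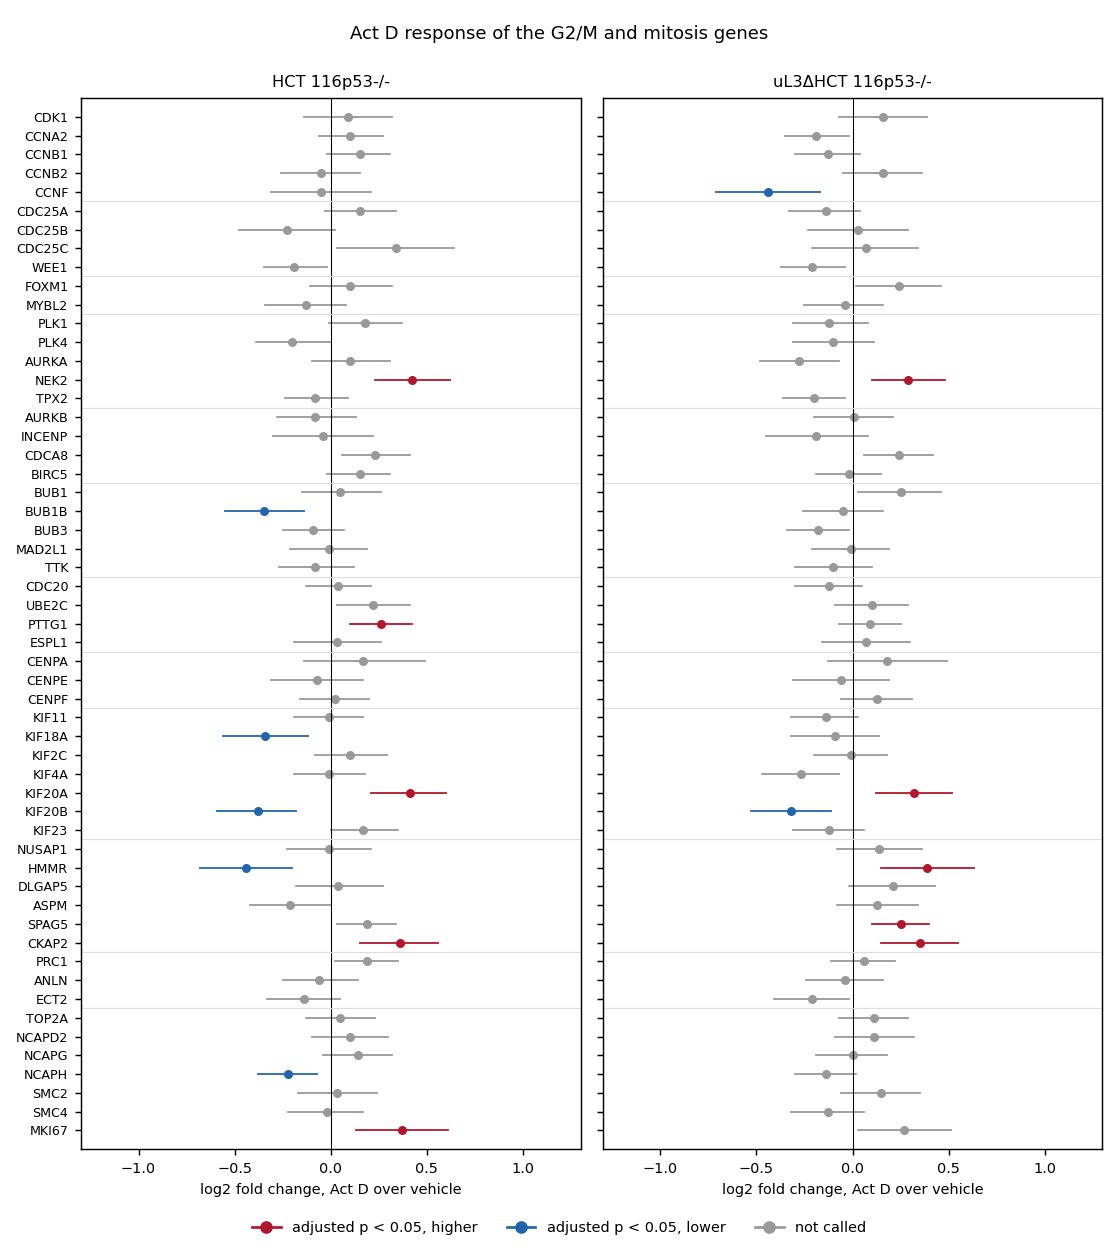
Fitted log2 fold change of Act D over vehicle (x axis) for each of the 55 members, ordered by role, in HCT 116p53-/- cells (left) and uL3Δ-labelled cells (right). Points are estimates and bars 95% intervals, members past the adjusted p threshold of 0.05 are red where higher and blue where lower, and the points lie between -0.44 and 0.42 on the left and between -0.44 and 0.39 on the right.

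In the uL3Δ-labelled line the band was similarly narrow. Its Act D library 1 stood apart from the other two: the chi-square statistic per degree of freedom was 107 and 62.5 against libraries 2 and 3, which differed by 13.0, and it had 9.83% mitochondrial counts against 7.10% and 7.71% and 25.5% of counts in its top 10 genes against 34.4% and 32.3%. Without it 2 members were called higher and 0 lower. Of the 55 members, 7 passed the test (12.7%, background 11.9%): 5 were higher (background 3.51%) and 2 were lower (background 8.40%). The intervals of all members lay between -0.71 and 0.63, the median log2 fold change was -0.01 beside 0.03 over all genes, and no member moved by more than 0.5, as 19.3% of tested genes did. Groups did not overlap for 20 members (36.4%), beside 27.6% of all genes.

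HMMR was the member most raised, from 37.4, 51.6 and 48.4 CPM to 58.1, 66.8 and 55.7 CPM (0.39 ± 0.11, adjusted p = 0.0332), with every treated library above every vehicle one. CKAP2 rose from 208, 208 and 199 CPM to 229, 291 and 264 CPM (0.35 ± 0.10, adjusted p = 0.0225), and KIF20A from 77.4, 76.8 and 77.0 CPM to 94.9, 85.1 and 109 CPM (0.32 ± 0.09, adjusted p = 0.0326). NEK2 (0.29, adjusted p = 0.0480) and SPAG5, which encodes the spindle protein astrin (0.25, adjusted p = 0.0275), were also higher. Cyclin F (CCNF), an F-box protein that marks ribonucleotide reductase and other proteins for degradation in G2, fell from 80.2, 53.8 and 55.5 CPM to 42.6, 43.6 and 53.5 CPM (-0.44 ± 0.13, adjusted p = 0.0337). KIF20B fell from 61.8, 60.2 and 60.5 CPM to 46.5, 55.5 and 44.1 CPM (-0.32 ± 0.10, adjusted p = 0.0437).

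CDK1 was at 245, 347 and 302 CPM with vehicle and 318, 347 and 333 CPM with Act D (0.16, -0.07 to 0.39, adjusted p = 0.385), and the groups overlapped. CCNB1 was at 161, 158 and 148 CPM and 133, 142 and 152 CPM (-0.13, -0.30 to 0.04, adjusted p = 0.323). AURKA was at 67.5, 71.1 and 67.0 CPM and lower in each treated library, at 61.3, 59.0 and 49.0 CPM, but missed the threshold (-0.28, -0.48 to -0.07, adjusted p = 0.0810). PLK1 (-0.12), TOP2A (0.11), FOXM1 (0.24), MYBL2 (-0.04) and MKI67 (0.27) had adjusted p of 0.457, 0.464, 0.150, 0.833 and 0.148. None of the 7 calls in the uL3Δ-labelled line was made in every alternative. In a fit of its own 6 libraries 0 members were called in either direction, where the joint fit borrows the spread of the other line. Scaling by library size alone gave 0 higher and 9 lower members, upper-quartile scaling 6 and 0, and leaving out Act D library 3 gave 0 higher and 1 lower.

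Part of the calls were common to both lines. Of the 10 members called in HCT 116p53-/- and the 7 in the uL3Δ-labelled line, 5 were called in both (50.0% and 71.4%), beside 26.1% and 41.1% over all genes. NEK2, KIF20A and CKAP2 were higher in both and KIF20B was lower in both, while HMMR went opposite ways. The comparisons use different libraries but come from a joint fit that shares the spread. In a fit of the uL3Δ-labelled libraries alone, 0 members were called, so none would be shared. The calls of NEK2, KIF20B, KIF20A, HMMR and CKAP2 in that line were lost in 17, 13, 12, 9 and 5 of 23 alternatives.

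**Figure D3:**
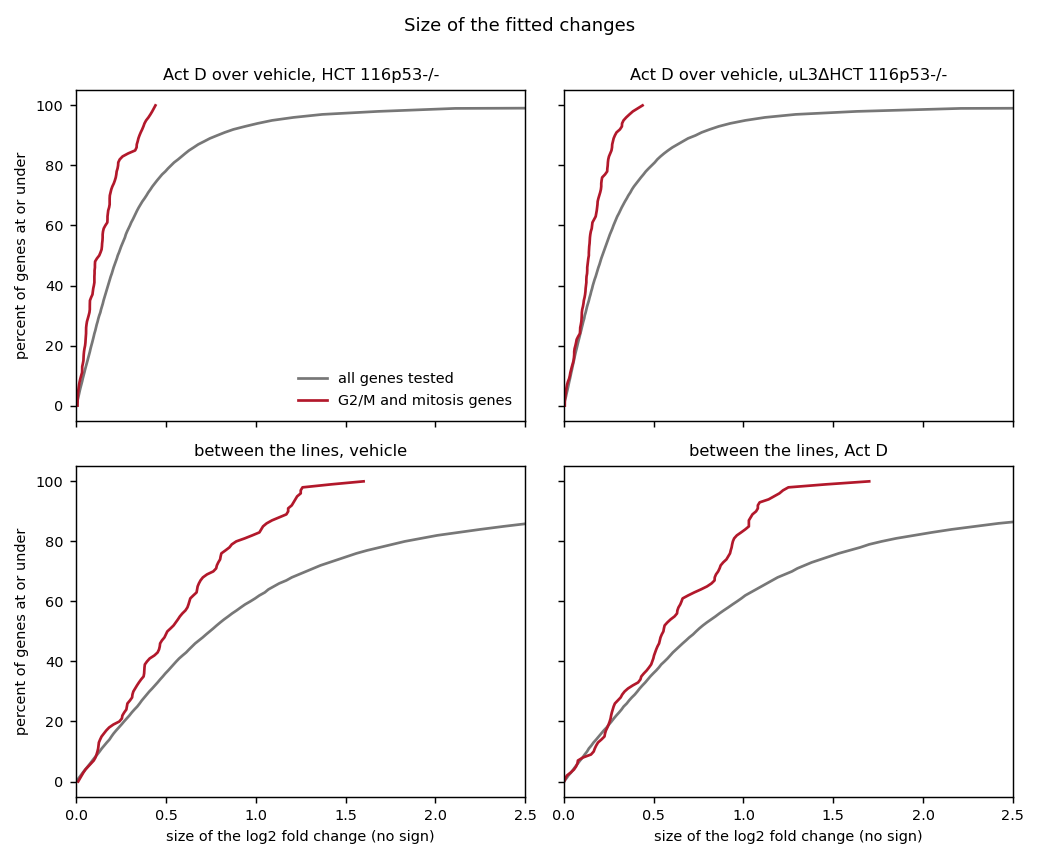
Percent of genes (y axis) whose fitted log2 fold change has at most the given size without sign (x axis), for the 55 members (red) and all 15692 genes tested (grey) in the 4 comparisons. The median size of the members is 0.128 and 0.139 for Act D in HCT 116p53-/- and in the uL3Δ-labelled line, and 0.507 and 0.554 between the lines with vehicle and with Act D.

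HMMR was the single member for which the Act D response itself differed between the lines (1 of 55, 1.82%, background 6.53%, or 3.30% for a higher response). Its response was 0.83 ± 0.16 higher on the log2 scale in the uL3Δ-labelled line (95% interval 0.49 to 1.17, adjusted p = 0.00489). With vehicle, the lines did not differ in HMMR beyond the spread, at 46.8 to 54.4 CPM and 37.4 to 51.6 CPM (-0.10, adjusted p = 0.419). With Act D they stood apart, at 35.1 to 38.0 CPM against 55.7 to 66.8 CPM (0.72 ± 0.11, adjusted p = 2.1e-05). The difference was called in all 22 alternatives, with adjusted p between 6.24e-05 and 0.0194 and log2 values between 0.70 and 0.92. The response within each line was less firm: without vehicle library 1 or Act D library 3 of HCT 116p53-/- the fall there missed the threshold (highest adjusted p 0.0574), and in the uL3Δ-labelled line 9 of 23 alternatives did, with an adjusted p of up to 0.165. HMMR (ENSG00000072571) lies at chr5:163460203-163491941 on the plus strand (hg38).

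No member had a response called lower in the uL3Δ-labelled line than in HCT 116p53-/-: edgeR and DESeq2 both gave 0 (background 3.23% by edgeR), and at an unadjusted p under 0.05 there were 7 lower and 2 higher (16.4% of the members, beside 21.2% of all genes tested). Among these 7, AURKA differed by -0.38 (-0.67 to -0.09, adjusted p = 0.110), CCNB1 by -0.28 (-0.52 to -0.04, adjusted p = 0.155), and PLK1 by -0.30 (-0.57 to -0.02, adjusted p = 0.191). For CDK1 the difference was 0.06 (-0.26 to 0.39, adjusted p = 0.858).

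Genes of G2 arrest, listed apart from the members, had larger changes in HCT 116p53-/-. CDKN1A, which encodes the CDK inhibitor p21, rose in HCT 116p53-/- from 154, 173 and 159 CPM to 577, 563 and 523 CPM (1.77, adjusted p = 4.02e-10), and was at 72.3, 76.6 and 73.9 CPM with vehicle and 86.8, 82.2 and 90.2 CPM with Act D in the uL3Δ-labelled line (0.22). Of 6 tested genes of that list, 4 rose in HCT 116p53-/- and 0 fell, CDKN1A and BTG2 (1.91), an antiproliferative gene, among them. In the uL3Δ-labelled line 0 rose and SFN, which encodes 14-3-3 sigma, fell (-0.57). The background for this list and the next ones was 7.59% higher and 11.1% lower in HCT 116p53-/-. In the uL3Δ-labelled line it was 3.51% and 8.4%. Of 11 DREAM and MuvB subunits, 3 fell and 0 rose in HCT 116p53-/-, and 5 fell and 1 rose in the uL3Δ-labelled line. RBL1, which encodes the pocket protein p107, was lower by -0.79 and -0.82, and DYRK1A, the kinase that assembles DREAM, by -0.33 and -1.06. Of 20 G1/S genes, 2 were higher and 6 lower in HCT 116p53-/-, and 1 was higher and 5 lower in the uL3Δ-labelled line, with cyclin D1 (CCND1) at -0.60 and -0.62.

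Among 74 other mitosis genes, listed apart from the members, Act D gave 4 higher and 14 lower in HCT 116p53-/-. It gave 7 higher and 9 lower in the uL3Δ-labelled line. Over all genes tested, 7.59% were higher and 11.1% lower in HCT 116p53-/-, and 3.51% and 8.4% in the uL3Δ-labelled line. Of 12 genes of cohesin and its regulators, WAPL and NIPBL among them, 5 were lower and 0 higher in HCT 116p53-/-. In the uL3Δ-labelled line 3 were lower and 0 higher, and the others did not pass the test. The cohesin subunit gene STAG1 fell most (-1.03 and -0.91), while the APC/C subunit gene CDC23 rose (0.39 and 0.43). The kinetochore gene CENPK fell in HCT 116p53-/- (-0.91) and stood at 0.21 in the uL3Δ-labelled line.

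Fitted differences between the lines were larger than those between vehicle and Act D. With vehicle, 44 of the 55 members passed the test (80.0%, background 71.3%), 21 higher in the uL3Δ-labelled line (background 35.1%) and 23 lower (background 36.2%). With Act D, 46 did (83.6%, background 70.4%), 23 higher (background 35.1%) and 23 lower (background 35.3%). The 2 comparisons share no library, and 41 members were called in both (93.2% and 89.1% of the calls, beside 85.9% and 87.0% over all genes). Of these 41, 20 were higher in both and 21 lower in both. None of the 41 was of opposite direction, beside 101 of 9612 shared calls over all genes. Groups did not overlap for 43 members with vehicle (78.2%, background 72.5%) and for 48 with Act D (87.3%, background 74.1%). The members moved both ways at once, so their median log2 difference was near that of all genes (-0.11 against -0.02 with vehicle, and -0.05 against -0.02 with Act D). A smaller share of the members than of all genes passed 1 on the log2 scale, 18.2% and 16.4% against 38.8% and 38.4%. The members were not matched to other genes on level. All genes tested include low ones such as CDH2, at 0.648 CPM in the uL3Δ-labelled line with vehicle. The part of level in these shares was not tested. With totals as the only scaling, the median over all genes was -0.26 in both comparisons, and there were 13 higher and 31 lower members with vehicle and 16 and 28 with Act D. The epithelial and mesenchymal markers given above moved with the same groups, and their part in these differences was not tested.

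**Figure D4:**
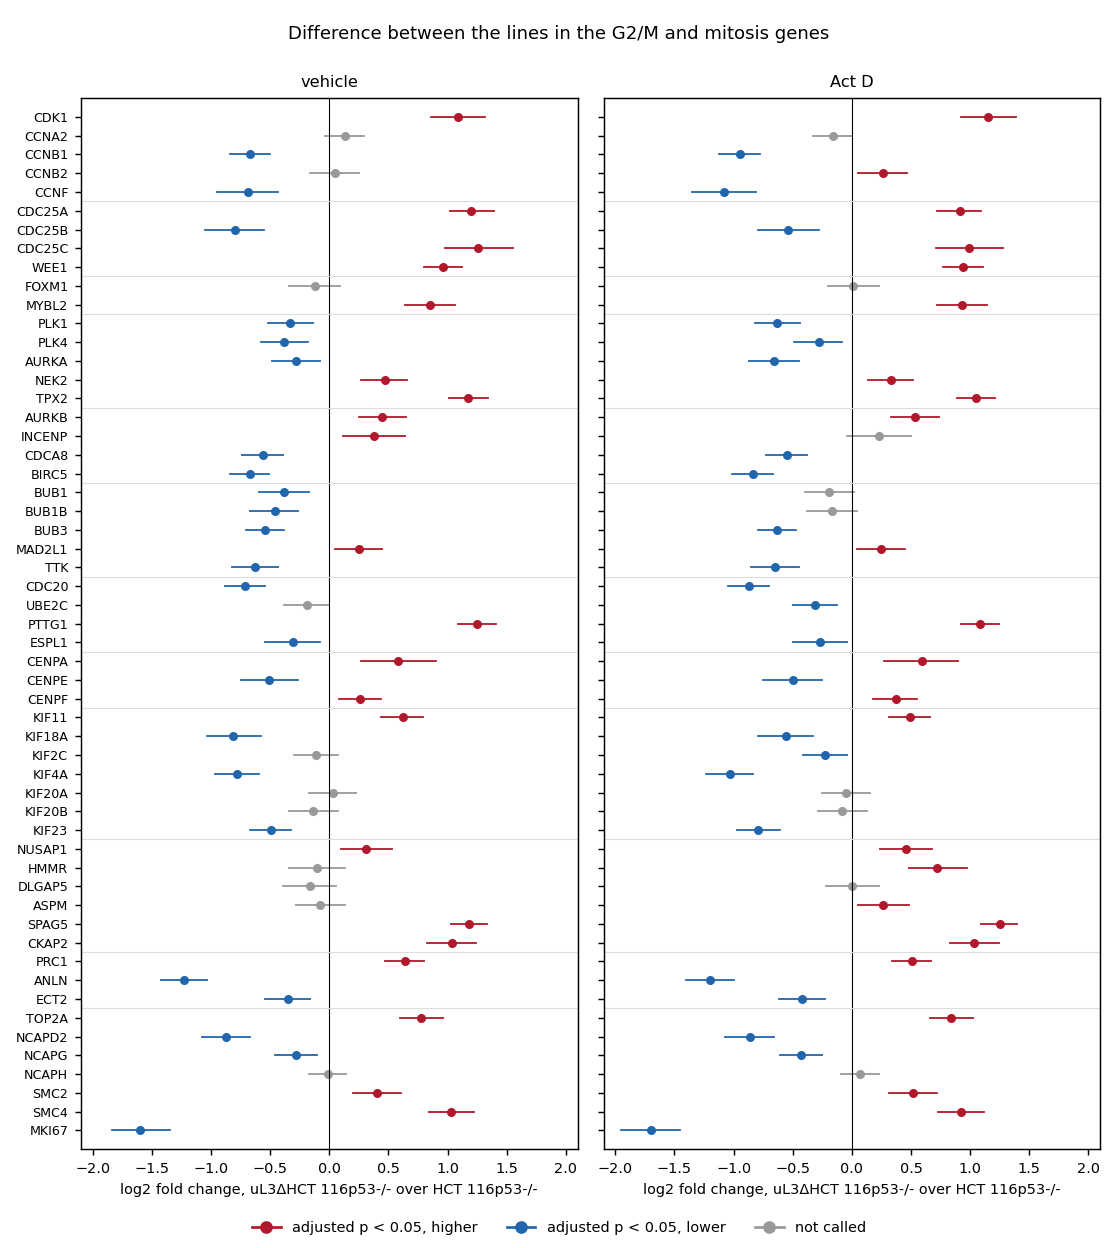
Fitted log2 fold change of the uL3Δ-labelled line over HCT 116p53-/- (x axis) for each of the 55 members, ordered by role, with vehicle (left) and with Act D (right). Points are estimates and bars 95% intervals, members past the adjusted p threshold of 0.05 are red where higher and blue where lower, and the points run from -1.60 (MKI67) to 1.26 (CDC25C) with vehicle and from -1.70 (MKI67) to 1.25 (SPAG5) with Act D.

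CDK1 and cyclin B1 parted. CDK1 was at 130 to 159 CPM in HCT 116p53-/- and at 245 to 347 CPM in the uL3Δ-labelled line with vehicle (log2 difference 1.09 ± 0.11, adjusted p = 6.97e-08), and at 148 to 150 against 318 to 347 CPM with Act D (1.15 ± 0.11, adjusted p = 3.75e-08). Cyclin B1 went the other way: CCNB1 was at 232 to 267 CPM against 148 to 161 CPM with vehicle (-0.67 ± 0.08, adjusted p = 6.81e-07) and at 266 to 282 against 133 to 152 CPM with Act D (-0.95 ± 0.08, adjusted p = 8.78e-09). CCNF was lower too (-0.69 and -1.08). Cyclin A2 (CCNA2) did not pass in either comparison (0.13 and -0.16), and CCNB2 passed with Act D alone (0.05 and 0.26). The CCNB2 call was lost in 8 of 23 alternatives, among them scaling by library size alone (0.01), no filter, the length offset, and leaving out Act D library 1 or 3 of HCT 116p53-/- or 2 or 3 of the uL3Δ-labelled line. The ratio of CDK1 to CCNB1 in TPM, which no scaling of libraries touches, was 0.467 to 0.517 in the 6 HCT 116p53-/- libraries, 1.25, 1.86 and 1.71 in the vehicle and 1.91 to 2.02 in the Act D libraries of the uL3Δ-labelled line. This ratio and those below were chosen after the values were seen and carry no test.

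The regulators of CDK1 phosphorylation were mostly higher. CDC25C was at 6.48 to 7.97 CPM in HCT 116p53-/- and at 15.0 to 19.9 CPM in the uL3Δ-labelled line with vehicle (1.26 ± 0.14, adjusted p = 1.83e-07), the largest positive difference of a member there, on counts of 100 to 397 per library. CDC25A, which acts from late G1 on, was at 52.9 to 56.0 against 124 to 129 CPM (1.20 ± 0.09, adjusted p = 9.82e-10), and the opposing kinase WEE1 was also higher (0.96 and 0.94). CDC25B, the phosphatase that starts CDK1 activation at the centrosome, was lower (-0.80 and -0.54). The TPM ratio of CDC25A to CDC25B was 0.418 to 0.764 in HCT 116p53-/- and 1.40 to 2.40 in the uL3Δ-labelled line.

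Of the transcription factors, MYBL2 was higher, at 78.3 to 92.1 CPM against 146 to 173 CPM with vehicle (0.85 ± 0.10, adjusted p = 5.17e-07) and 71.2 to 84.7 against 137 to 161 CPM with Act D (0.93 ± 0.10, adjusted p = 1.96e-07). FOXM1 did not pass in either comparison, though under scaling by library size alone it was called lower with vehicle (-0.36, adjusted p = 0.00779). Its groups overlapped, with values of 76.7 to 82.6 against 64.4 to 79.1 CPM with vehicle (-0.12, -0.34 to 0.09, adjusted p = 0.293) and 78.6 to 94.3 against 77.0 to 96.7 CPM with Act D (0.01, -0.20 to 0.23, adjusted p = 0.913).

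All 5 genes of the Polo, Aurora and NEK group passed in both comparisons. PLK1 was lower (-0.33 ± 0.09, adjusted p = 0.00313 with vehicle, and -0.63 ± 0.09, adjusted p = 8.25e-06 with Act D), as were AURKA (-0.28 ± 0.10, adjusted p = 0.0150, and -0.66 ± 0.10, adjusted p = 1.06e-05) and PLK4, which licenses centriole duplication (-0.38 and -0.28). TPX2, whose product activates Aurora A, was higher (1.17 and 1.05), and so was NEK2 (0.47 and 0.33). With vehicle, PLK1 was at 99.6 to 108 CPM against 78.3 to 89.1 CPM, without overlap. The AURKA call with vehicle was lost without vehicle library 1 of HCT 116p53-/- (adjusted p = 0.0912), and both NEK2 calls under scaling by library size alone (adjusted p = 0.0543 and 0.459). The PLK4 call with Act D was lost with the length offset or without Act D library 1 of the uL3Δ-labelled line.

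**Figure D5:**
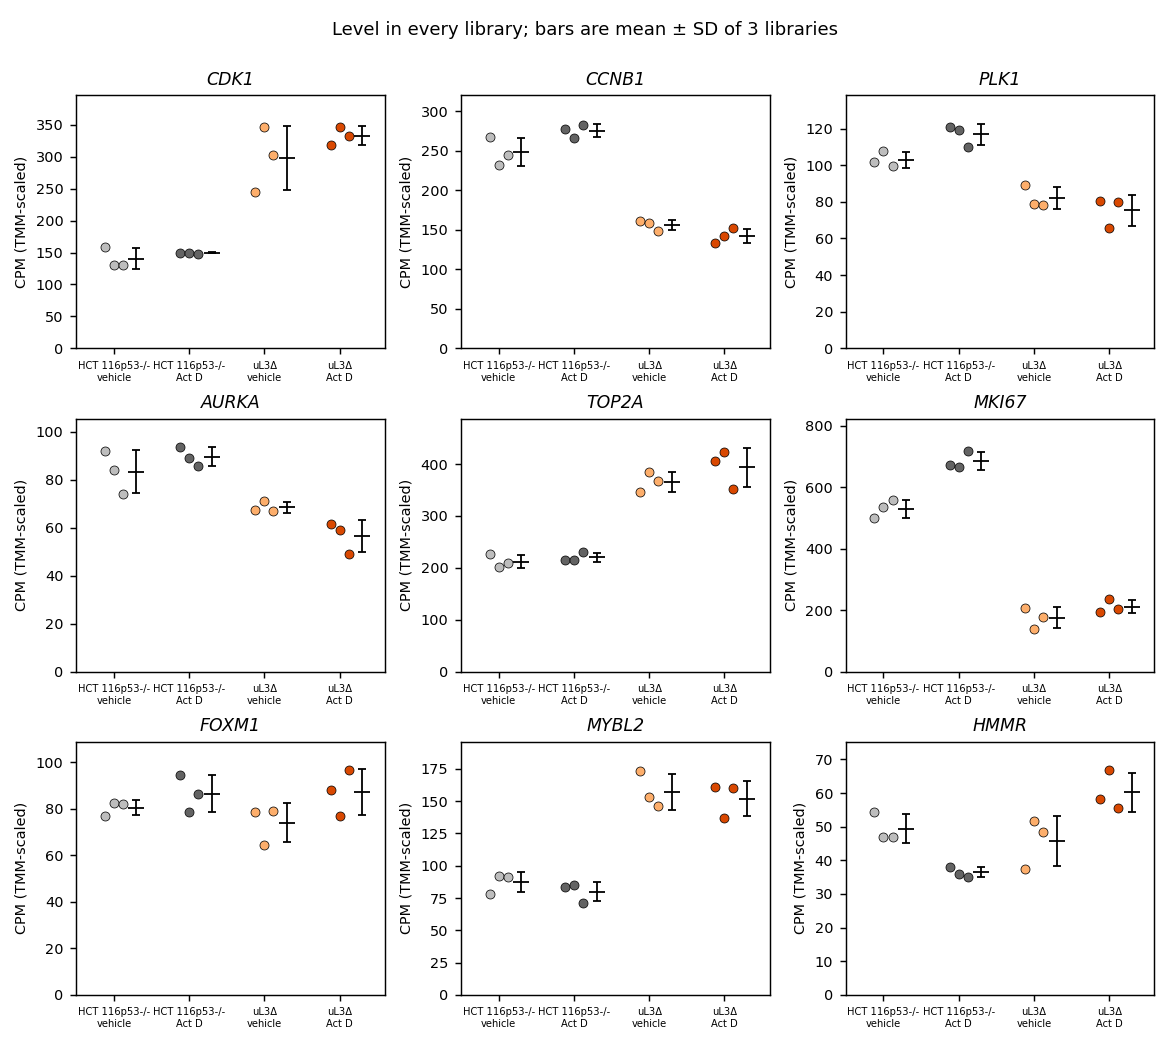
CPM in each library (y axis, from 0) of CDK1, CCNB1, PLK1, AURKA, TOP2A, MKI67, FOXM1, MYBL2 and HMMR in the 4 groups (x axis, uL3Δ standing for the uL3Δ-labelled line), with the mean and SD of 3 libraries beside the points. CDK1, TOP2A and MYBL2 sit higher in the uL3Δ-labelled line and CCNB1, PLK1, AURKA and MKI67 lower, whereas HMMR separates the lines with Act D, at 35.1 to 38.0 against 55.7 to 66.8 CPM.

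The chromosomal passenger complex, which corrects the attachment of chromosomes to the spindle, was divided. The genes of its kinase AURKB (0.45 and 0.53) and its scaffold INCENP (0.38, and 0.23 with Act D, adjusted p = 0.113) lay above, and those of survivin, BIRC5 (-0.67 and -0.84), and borealin, CDCA8 (-0.56 and -0.55), lay below. The TPM ratio of AURKB to BIRC5 was 0.541 to 0.700 in HCT 116p53-/- and 1.25 to 1.52 in the uL3Δ-labelled line. Of the 5 spindle checkpoint genes, 4 were lower with vehicle, TTK (-0.63), which encodes the kinase MPS1, first among them, and MAD2L1 was slightly higher (0.25, and 0.25 with Act D). Each MAD2L1 call was lost in several alternatives: its values were 0.01 and -0.00 under scaling by library size alone, the length offset ended both calls, and so did leaving out vehicle library 2 or 3 of either line, or any Act D library of HCT 116p53-/- or Act D library 2 or 3 of the uL3Δ-labelled line. The BUB1 call with vehicle was lost with the length offset and replicate block together, and those of AURKB and INCENP with vehicle under scaling by library size alone, INCENP also without vehicle library 3 of HCT 116p53-/- or vehicle library 1 of the uL3Δ-labelled line. With Act D, TTK (-0.65) and BUB3 (-0.63) stayed lower, while BUB1 (-0.19, adjusted p = 0.0992) and BUB1B (-0.17, adjusted p = 0.134) did not pass.

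Of the genes of anaphase, PTTG1, the inhibitor of separase, was at 65.5 to 72.1 CPM against 157 to 170 CPM with vehicle (1.25 ± 0.08, adjusted p = 7.49e-11) and at 77.7 to 85.4 against 173 to 175 CPM with Act D (1.08 ± 0.08, adjusted p = 6.68e-10). CDC20 (-0.71 and -0.87) and ESPL1, which encodes separase (-0.31 and -0.27), were lower. The ESPL1 calls were lost with the length offset, at -0.11 and -0.09, and without vehicle library 2 of HCT 116p53-/-, vehicle library 2 or 3 of the uL3Δ-labelled line, Act D library 1 or 3 of HCT 116p53-/- or Act D library 2 or 3 of the uL3Δ-labelled line. The TPM ratio of securin to separase was 8.99 to 13.9 in HCT 116p53-/- and 26.5 to 41.9 in the uL3Δ-labelled line. UBE2C passed with Act D alone (-0.19 and -0.31).

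At the centromere, CENPA, the histone H3 variant of centromeric chromatin, was higher (0.58 and 0.59), as was CENPF (0.26 and 0.37), and CENPE was lower (-0.51 and -0.50). Scaling by library size alone ended both CENPA calls (0.34 and 0.35) and both CENPF calls (0.02 and 0.12), and the CENPF call with vehicle was also lost without vehicle library 3 of the uL3Δ-labelled line. Of the 7 kinesins, KIF11, which separates the spindle poles, was higher (0.62 and 0.49), and KIF4A (-0.78 and -1.03), KIF18A (-0.81 and -0.56) and KIF23 (-0.49 and -0.79) were lower. KIF20A (0.03 and -0.05) and KIF20B (-0.14 and -0.08) did not differ between the lines beyond their spread. Both were called with Act D in each line, but none of these calls held in every alternative. In the uL3Δ-labelled line they were lost in 12 and 13 of 23.

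None of the 6 spindle-associated genes was lower in the uL3Δ-labelled line. SPAG5 was at 95.2 to 99.0 CPM against 212 to 227 CPM with vehicle (1.18 ± 0.07, adjusted p = 9.11e-11), and at 106 to 115 against 254 to 271 CPM with Act D (1.25 ± 0.07, adjusted p = 5.25e-11), the largest positive difference with Act D. CKAP2 was higher by a similar amount (1.04 and 1.03) and NUSAP1 by less (0.31 and 0.46). ASPM, a spindle pole protein, passed with Act D alone (-0.08 and 0.26), and DLGAP5 in neither (-0.16 and 0.00). The ASPM call was lost in 7 of 23 alternatives: under scaling by library size alone (0.02), with no filter, and without any Act D library of HCT 116p53-/- or Act D library 1 or 2 of the uL3Δ-labelled line. Both NUSAP1 calls were lost under scaling by library size alone, and the one with vehicle without vehicle library 3 of HCT 116p53-/- or vehicle library 2 of the uL3Δ-labelled line.

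The cytokinesis genes ANLN and PRC1 pointed in opposite directions. ANLN, which encodes the contractile ring scaffold anillin, was at 202 to 227 CPM against 77.6 to 102 CPM with vehicle (-1.23 ± 0.09, adjusted p = 1.89e-09) and at 201 to 204 against 84.3 to 93.6 CPM with Act D (-1.20 ± 0.10, adjusted p = 3.22e-09). ECT2, which positions the ring through RhoA, was lower (-0.35 and -0.42), and PRC1, which bundles the central spindle, was higher (0.64 and 0.51). The ECT2 call with vehicle was lost with the length offset and replicate block together (adjusted p = 0.0527).

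Condensin split by subunit. The ATPases SMC4 (1.03 and 0.92) and SMC2 (0.40 and 0.52) were higher, whereas the regulatory subunits NCAPD2, at 170 to 204 CPM against 94.5 to 116 CPM with vehicle (-0.87 ± 0.10, adjusted p = 2.34e-07), and NCAPG (-0.28 and -0.43) were lower and NCAPH did not pass (-0.01 and 0.07). With vehicle, the SMC2 call was lost under scaling by library size alone and the NCAPG call with the length offset (-0.09). The TPM ratio of SMC4 to NCAPD2 was 0.610 to 0.907 in HCT 116p53-/- and 1.77 to 3.37 in the uL3Δ-labelled line. TOP2A, which untangles sister chromatids, was at 202 to 226 against 346 to 384 CPM with vehicle (0.78 ± 0.08, adjusted p = 1.94e-07) and at 215 to 231 against 352 to 424 CPM with Act D (0.84 ± 0.09, adjusted p = 9.13e-08). MKI67 was the member with the largest difference of all, at 499 to 557 CPM against 140 to 208 CPM with vehicle (-1.60 ± 0.12, adjusted p = 9.5e-10) and 665 to 719 against 195 to 235 CPM with Act D (-1.70 ± 0.12, adjusted p = 5.01e-10).

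Members with and without a CHR-type hexamer were both found on each side. With vehicle, of the 35 members with one, 13 were higher and 17 lower in the uL3Δ-labelled line (median log2 difference -0.16), and of the 12 without, 6 were higher and 2 lower (0.29). With Act D the counts were 15 and 15 (-0.08), and 6 and 3 (0.20). The background was 35.1% higher and 36.2% lower with vehicle, and 35.1% and 35.3% with Act D. The response to Act D had medians of 0.02 with and 0.12 without a hexamer in HCT 116p53-/-, and of 0.06 and -0.03 in the uL3Δ-labelled line. These are descriptions of lists that were not drawn at random, and the groups with and without were not compared by a test.

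The mitosis genes outside the list were as divided. With vehicle, 20 of 74 were higher and 28 lower (64.9%, background 71.3%), and with Act D 26 and 27 (71.6%, background 70.4%). For this list and the next ones, the background was 35.1% higher and 36.2% lower with vehicle, and 35.1% and 35.3% with Act D. CENPH, a kinetochore gene (1.97 and 1.96), and the CDK1 partner gene CKS1B (1.74 and 1.66) were among the highest, and the APC/C subunit gene CDC27 (-1.60 and -1.74) and the kinesin gene KIF18B (-1.40 and -1.61) the lowest. Of 13 genes of the APC/C and its inhibitor, 1 was higher and 8 were lower with vehicle, and 1 and 7 with Act D. Among DREAM and MuvB subunits, 4 of 11 were higher and 5 lower in both comparisons, with E2F5 at 0.95 and 1.35 and E2F4 at -0.54 and -1.01. Of 20 G1/S genes, 4 were higher and 13 lower in both, with the replication factor gene CDC45 at 1.27 and 1.60 and cyclin E1 (CCNE1) at -1.14 and -1.05. Of the 6 tested G2 arrest genes, 5 were lower and 1 was higher in both comparisons, SFN (-2.32 and -3.38) lowest.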

How the data were processed

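RNA-seq libraries from TruSeq RNA kits were sequenced as paired ends by the authors, who trimmed reads, removed ribosomal ones and quantified the rest with RSEM 1.2.25 on hg38. The deposited values used here are RSEM expected counts and TPM per gene. In 11 libraries they were deposited per gene, and in vehicle-treated HCT 116p53-/- library 2 per transcript, here summed to genes. The RSEM posterior SD columns, another deposited value, served only to check that reads were assigned with little doubt (at most 1% of the count in each member). Expected counts were rounded and tested in edgeR 4.0.16 (filterByExpr, TMM, quasi-likelihood test, 1 coefficient per group over all 12 libraries, Benjamini-Hochberg adjustment over 15692 genes, threshold 0.05). Log2 fold changes are given with SE and 95% interval. TPM served only for levels between genes. Alternatives used DESeq2 1.42.0, other scalings and filters, a length offset, a replicate block and libraries left out. R 4.3.3, limma 3.58.1, Python 3.11, pandas 2.3.3 and matplotlib 3.10.9 were used. Gene coordinates are from GENCODE v44. The members and all lists were chosen with earlier results of these data known. Full values are given for 8 landmark genes, the 3 members called with the largest change in each direction and any member whose response differed, and of each other list for at most 2 genes a direction, other genes being named for their role.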

Additional observations from a re-analysis of the deposited data

Results flagged for a closer look

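The Act D response differed between the lines, by the interaction term of the edgeR fit, for 9 genes of the lists examined. Values are the log2 response in the uL3Δ-labelled line less that in HCT 116p53-/-. Among the members it was HMMR (0.83, adjusted p = 0.00489). Among the other mitosis genes it was CENPK (1.12) and CIT, the citron kinase of cytokinesis (0.66). Among DREAM and MuvB subunits it was DYRK1A (-0.74). Of the G2 arrest genes, CDKN1A (-1.56), BTG2 (-1.41), GADD45A (-1.20) and SFN (-1.06) differed. Of the colon epithelial markers, the splicing regulator ESRP1 did (0.66). No outlier test for single libraries was run per gene, since a group holds 3.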

How the results depend on the processing

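Most calls between the lines held in every alternative, and most Act D calls did not. Of the members called, 31 of 44 with vehicle, 36 of 46 with Act D and the 1 with a differing response were called in every alternative, against 1 of 10 for Act D in HCT 116p53-/- and 0 of 7 in the uL3Δ-labelled line. For each change the cause was not tested. Scaling by library size alone moved the median of all genes from 0.02 to -0.08 for Act D in HCT 116p53-/- and gave 1 higher member there. It gave 0 higher and 9 lower in the uL3Δ-labelled line. Between the lines with vehicle it gave 13 higher and 31 lower, where the main fit gave 21 and 23. Mean TPM, also without TMM, was lower in the uL3Δ-labelled line with Act D for some members called higher there. These were AURKB (36.0 against 31.7), CCNB2 (30.7 against 25.0), NEK2, MAD2L1, NUSAP1, ASPM and, by little, KIF11. The remaining members called higher there also had a higher mean TPM, CDK1 (62.9 against 97.8) and SPAG5 (35.6 against 54.4) among them. These means were not tested. Upper-quartile scaling gave 3 lower in HCT 116p53-/- and 0 lower in the uL3Δ-labelled line. Without a filter 2 were higher in the uL3Δ-labelled line, and with a length offset 1 was lower. A fit of the compared groups alone gave 0 higher and 0 lower there.

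By the numbers in the sample titles, the deviations of same-numbered libraries had correlations from -0.104 to 0.101. For Act D in HCT 116p53-/- these were 0.0308, 0.101 and 0.0389, beside -0.0985 to 0.0541 for libraries of different number. With 3 libraries in a group, such values cannot exclude a pairing. The sample descriptions number the Act D libraries of the uL3Δ-labelled line apart from the other groups and share no number with them. A replicate block gave 5 higher and 4 lower members with Act D in HCT 116p53-/- and 1 higher and 0 lower in the uL3Δ-labelled line. With the length offset and the block together, 2 were lower in HCT 116p53-/-, and 2 higher and 1 lower in the uL3Δ-labelled line.

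Leaving out 1 library gave 2 to 6 higher and 0 to 5 lower members with Act D in HCT 116p53-/-, and 0 to 5 higher and 0 to 2 lower in the uL3Δ-labelled line. In HCT 116p53-/- there were 0 lower without vehicle library 1, 1 without Act D library 1 or 2 and 3 without Act D library 3 or vehicle library 2 or 3, and 2 higher without vehicle library 2 and 3 without Act D library 1 or 3. In the uL3Δ-labelled line there were 0 higher without its Act D library 3, 1 without its Act D library 2 or Act D library 3 of HCT 116p53-/-, 2 without its Act D library 1 or any of its vehicle libraries and 3 without Act D library 1 of HCT 116p53-/-. There were 0 lower without its Act D library 1, and 1 without its vehicle library 1 or 3, its Act D library 2 or 3, or vehicle library 2, Act D library 1 or Act D library 2 of HCT 116p53-/-. Between the lines the ranges were 18 to 21 higher and 22 to 24 lower with vehicle, and 20 to 23 and 21 to 24 with Act D.

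The sign of 16 values turned, MAD2L1 the single one called. Under library size alone CDK1 and TOP2A stood at -0.01 and -0.05 for Act D in HCT 116p53-/-, and FOXM1 and MAD2L1 at -0.23 and -0.00 between the lines with Act D. FOXM1 stood there at -0.02 without a filter, and at -0.06, -0.02 and -0.10 without Act D library 2 or 3 of HCT 116p53-/- or Act D library 3 of the uL3Δ-labelled line. MYBL2 with Act D in the uL3Δ-labelled line stood at 0.02 under upper-quartile scaling, and at 0.02 and 0.01 without its vehicle library 1 or Act D library 2. Over the libraries left out in turn, MYBL2 there ran from -0.11 to 0.02 and FOXM1 between the lines with Act D from -0.10 to 0.08. For the difference of the responses the ranges were -0.06 to 0.19 for CDK1, -0.03 to 0.15 for MYBL2, -0.03 to 0.09 for TOP2A and -0.25 to 0.04 for MKI67. The carry-over subtraction was chosen after seeing the data. Depth was not varied, and both it and the 3 libraries a group limit the precision, most for low members such as CDC25C, at 100 to 132 counts in HCT 116p53-/- with vehicle.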
